A study of Mus musculus with 3 samples.

Results

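The haemoglobin genes of the mouse kidney libraries were taken as 5 of the 33696 genes listed in the count matrices, by their symbols: the alpha globins Hba-a1 and Hba-a2, the beta globins Hbb-bs and Hbb-bt, and Alas2, the erythroid enzyme that starts haem synthesis. Single-cell 3′ RNA libraries came from the kidneys of male mice, with 1 library for each of 3 groups: mice of 20 months given D+Q (aged D+Q), mice of 20 months given vehicle (aged vehicle), and young mice of 3 to 4 months that served as controls. The series calls D+Q a senolytic treatment, meaning one aimed at senescent cells; strain and the number of animals behind a library are not stated there. The 3 suspensions shared a collagenase II digest, straining and a red blood cell lysis of 10 minutes at 4 °C, so every group had passed a step that removes red cells.

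Haemoglobin carries oxygen as a tetramer of alpha and beta chains, each holding a haem group. Red cell precursors make its chains in great amount, and reticulocytes, the young red cells that have lost their nucleus, still hold globin mRNA after most other transcripts are gone. Kidney epithelium is not known as a major source of it; the kidney takes part in the system through erythropoietin, the hormone that drives red cell production, and through the uptake of filtered haemoglobin by the proximal tubule. Unlike its housekeeping relative Alas1, Alas2 is made mainly in erythroid cells, so its counts show whether globin counts come with another transcript of the red cell lineage.

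The 250 bases before the members' start sites are shown here to place the members in the genome and to show how alike the paralogues are. RefSeq (GRCm38.p6) held a window for 5 of 5 members, Hba-a1 at chr11:32283422-32283671 (plus strand), Hbb-bs at chr7:103827929-103828178 (minus strand), Hbb-bt at chr7:103813924-103814173 (minus strand) and Alas2 at chrX:150547167-150547416 (plus strand). Capitals mark 4 words searched on both strands: GATAA, known from factors of red cell genes, then CCAAT, a common promoter word, then CACCC, known from globin promoters, and lastly ATATAA, which marks start sites.
Hba-a1: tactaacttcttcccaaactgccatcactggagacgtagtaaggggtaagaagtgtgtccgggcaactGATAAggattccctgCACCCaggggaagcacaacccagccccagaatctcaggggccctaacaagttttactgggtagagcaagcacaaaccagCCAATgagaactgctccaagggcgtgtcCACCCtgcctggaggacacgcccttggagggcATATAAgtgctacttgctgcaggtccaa
Hbb-bs: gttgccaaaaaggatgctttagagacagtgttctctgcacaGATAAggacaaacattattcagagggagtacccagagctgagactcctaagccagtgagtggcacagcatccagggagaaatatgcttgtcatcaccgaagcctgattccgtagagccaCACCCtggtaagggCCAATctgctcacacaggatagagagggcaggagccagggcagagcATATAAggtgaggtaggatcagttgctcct
Hbb-bt: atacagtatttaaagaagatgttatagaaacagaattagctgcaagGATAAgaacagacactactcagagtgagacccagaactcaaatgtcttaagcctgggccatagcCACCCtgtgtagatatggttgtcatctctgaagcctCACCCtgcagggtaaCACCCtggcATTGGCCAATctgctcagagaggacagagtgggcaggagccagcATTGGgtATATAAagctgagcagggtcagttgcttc
Alas2: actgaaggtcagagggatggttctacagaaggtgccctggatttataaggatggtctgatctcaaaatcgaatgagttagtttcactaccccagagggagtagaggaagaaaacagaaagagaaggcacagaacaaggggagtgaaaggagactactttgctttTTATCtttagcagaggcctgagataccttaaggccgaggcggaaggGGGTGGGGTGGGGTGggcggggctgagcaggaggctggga
Of 32851 windows of this length, 22.6% held GATAA, 33.8% CCAAT, 52.0% CACCC and 9.10% ATATAA on either strand. The 3 globin windows held all 4 words, with ATATAA starting 28 bases before the start site in Hba-a1, 30 in Hbb-bs and 29 in Hbb-bt. The Alas2 window held GATAA and CACCC words on the reverse strand, and CCAAT and ATATAA did not occur in it. In Hbb-bt, 2 CCAAT words on opposite strands adjoined each other, starting 80 and 75 bases before the start. A match describes the letters of a window and is not a binding site. The Hba-a2 window (chr11:32296242-32296491, plus strand) is not printed, because shifted by 3 bases it equalled that of Hba-a1 over 247 of 247 bases.

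That likeness reaches into the transcripts, and it limits what can be said of single paralogues. The longest GENCODE transcripts of Hba-a1 and Hba-a2 aligned with 537 identical bases and 1 mismatch, the other 177 alignment positions being gaps from unequal annotated lengths of 699 and 554 bases. Hbb-bs and Hbb-bt had 586 identical bases and 39 mismatches. The rule that divided reads between such copies is not stated in the labels, so the 2 alpha genes cannot be separated with confidence, and sums over the alpha or beta pair are the firmer values.

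The libraries held 8037 barcodes and 21058975 UMI counts (aged D+Q), 6027 barcodes and 13944270 counts (aged vehicle), and 8615 barcodes and 24346733 counts (young), with median totals of 2299, 1883 and 2391 per barcode and median mitochondrial shares of 6.11%, 4.50% and 6.29% in that order. Kidney identity was clear from Slc34a1, a phosphate transporter of the proximal tubule, at 4460, 4964 and 4326 counts per 1000000 (CPM), and Umod, made by the thick ascending limb, at 1226, 899 and 1220 CPM. Aged D+Q shared 28 barcodes with aged vehicle and 33 with young, aged vehicle and young shared 38, and 0 occurred in all 3. Shared barcodes held 12, 16 and 32 globin counts and 0 of the globin-rich barcodes described later. Each group is 1 library, so differences could be neither checked against replicates nor tested, and "higher" and "lower" describe these libraries. Parentheses give 95% intervals that cover counting error only, exact Poisson for levels, conditional binomial for ratios and Clopper-Pearson for shares. In pooled counts, fewer cells of a type and less RNA per cell cannot be told apart.

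The alpha chain genes were highest in the aged vehicle library. Hba-a1 (ENSMUSG00000069919) had 1119 counts or 53.1 CPM (50.1 to 56.3) in aged D+Q, 1683 counts or 121 CPM (115 to 127) in aged vehicle, and 1847 counts or 75.9 CPM (72.4 to 79.4) in young. Hba-a2 (ENSMUSG00000069917) had 827 counts or 39.3 CPM (36.6 to 42.0) in aged D+Q, 1197 counts or 85.8 CPM (81.0 to 90.9) in aged vehicle, and 1370 counts or 56.3 CPM (53.3 to 59.3) in young. For both, aged vehicle lay above young and young above aged D+Q.

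The beta chain genes were also highest in aged vehicle, but their order below it differed. Hbb-bs (ENSMUSG00000052305), the most counted member in each library, had 3400 counts or 161 CPM (156 to 167) in aged D+Q, 4073 counts or 292 CPM (283 to 301) in aged vehicle, and 3457 counts or 142 CPM (137 to 147) in young. Hbb-bt (ENSMUSG00000073940), its less counted neighbour, had 526 counts or 24.98 CPM (22.9 to 27.2) in aged D+Q, 709 counts or 50.8 CPM (47.2 to 54.7) in aged vehicle, and 940 counts or 38.6 CPM (36.2 to 41.2) in young. Aged D+Q was thus above young for Hbb-bs and below it for Hbb-bt. Neither order held throughout. Without the 1 barcode of each library with the most globin counts, Hbb-bt was at 14.6 CPM in aged D+Q and 14.3 CPM in young, and in barcodes under 1% globin Hbb-bs was at 61.8 CPM in aged D+Q and 74.8 CPM in young.

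Alas2 (ENSMUSG00000025270) did not follow the globins. It had 43 counts or 2.04 CPM (1.48 to 2.75) in aged D+Q, 29 counts or 2.08 CPM (1.39 to 2.99) in aged vehicle, and 49 counts or 2.01 CPM (1.49 to 2.66) in young. These levels overlapped almost wholly. The log2 ratio was -0.026 (-0.74 to 0.71) for aged D+Q against aged vehicle and 0.047 (-0.67 to 0.74) for aged vehicle against young, so a change of 1.5-fold either way was within the counting error. Alas2 counts lay in 32 barcodes in aged D+Q, 28 in aged vehicle and 44 in young. At most 9, 2 and 5 counts were in 1 barcode. Most of them, 31 of 43, 19 of 29 and 44 of 49, lay in barcodes under 1% globin. Those were 8024 of 8037, 5969 of 6027 and 8610 of 8615 barcodes. The few barcodes with 1% globin or more held the other 12, 10 and 5 Alas2 counts.

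**Figure D1:**
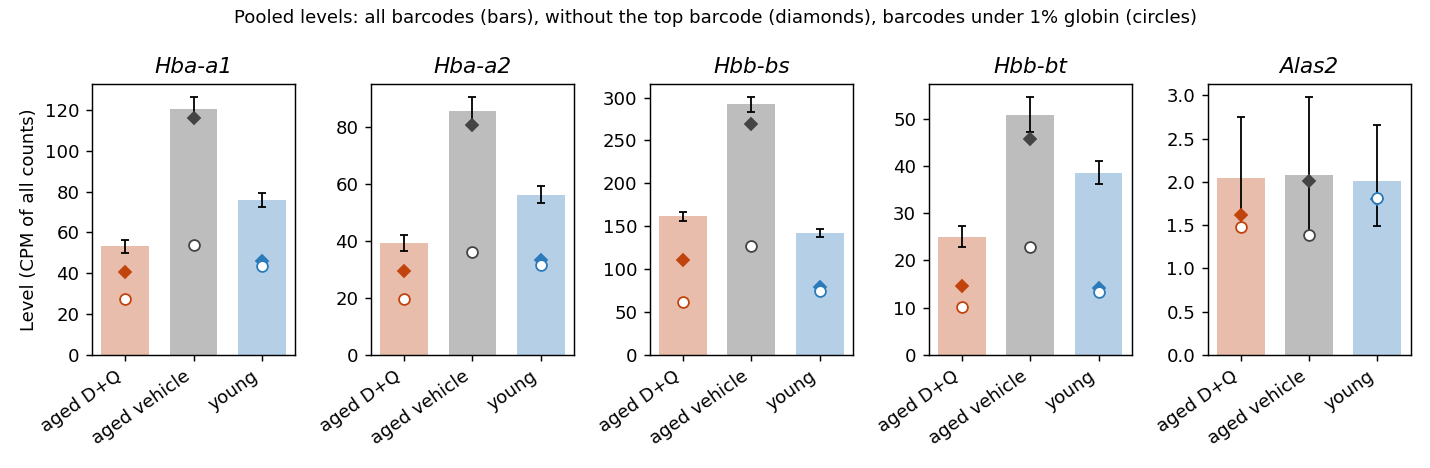
Pooled level of each member (CPM of all counts) in the aged D+Q, aged vehicle and young libraries. Bars are all barcodes with 95% Poisson intervals, diamonds leave out the 1 barcode of each library with the most globin counts, and circles keep barcodes under 1% globin; the 4 globins are highest in aged vehicle in all 3 settings, and Alas2 lies near 2 CPM in each library with all barcodes.

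The first comparison set the D+Q kidney against the vehicle kidney of the same age. The 4 globins together stood at 279 CPM (272 to 286) in aged D+Q, against 549 CPM (537 to 562) in aged vehicle, a log2 ratio of -0.98 (-1.03 to -0.93). Each globin was lower, with log2 ratios of -1.18 for Hba-a1, -1.13 for Hba-a2, -0.86 for Hbb-bs and -1.03 for Hbb-bt. All 4 of the members above the level floor (a mean of 5 CPM) were thus over 1.5-fold lower, where 1.77% of the 11959 genes above it were (3.23% in either direction). The median log2 ratio over those genes was -0.060. Alas2 was under the floor.

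The second comparison set the aged kidney against the young. The globin sum was 549 CPM in aged vehicle and 313 CPM (306 to 320) in young, a log2 ratio of 0.81 (0.77 to 0.86). Log2 ratios were 0.67 for Hba-a1, 0.61 for Hba-a2, 1.04 for Hbb-bs and 0.40 for Hbb-bt. So 3 of the 4 globins were over 1.5-fold higher, beside 4.13% of the 11959 genes (7.17% in either direction), and Hbb-bt was not. None of the 4 was over 1.5-fold lower, where 3.04% of genes were. The median log2 ratio over those genes was 0.054. Both comparisons use the same aged vehicle library, so their opposite signs are not separate observations.

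These pooled levels rested on very few barcodes. Of all barcodes, 81.9% in aged D+Q, 77.4% in aged vehicle and 73.9% in young had a globin count of 0. The 1 barcode with the most globin held 1771 counts in aged D+Q, 516 in aged vehicle and 3415 in young, which was 30.2%, 6.73% and 44.9% of all globin counts of its library. Reaching 50% of the globin counts took 6 barcodes in aged D+Q, 38 in aged vehicle and 9 in young. The variance of the globin count over barcodes was 620 times the mean in aged D+Q, 93.01 times in aged vehicle and 1536 times in young, and without that 1 barcode 124, 62.6 and 9.51 times. In the young library a single barcode therefore carried most of the spread.

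Leaving out the 1 top barcode of each library widened both differences. Keeping only barcodes under 1% globin left the first nearly the same and narrowed the second. Both settings were chosen after the values were seen. Without the top barcode the globin sum was 195 CPM in aged D+Q, 513 CPM in aged vehicle and 172 CPM in young, with log2 ratios of -1.40 (aged D+Q against aged vehicle) and 1.57 (aged vehicle against young). In barcodes under 1% globin it was 119, 240 and 163 CPM, with log2 ratios of -1.02 and 0.56. Aged D+Q was above young without the top barcode and below it in barcodes under 1%. In barcodes under 1%, aged D+Q stood at 0.503-fold of aged vehicle for Hba-a1, 0.541-fold for Hba-a2, 0.487-fold for Hbb-bs and 0.446-fold for Hbb-bt. There, aged vehicle exceeded young by 1.24-fold for Hba-a1, 1.14-fold for Hba-a2, 1.70-fold for Hbb-bs and 1.71-fold for Hbb-bt. At this low level the age difference was thus smaller for the alpha than for the beta genes.

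**Figure D2:**
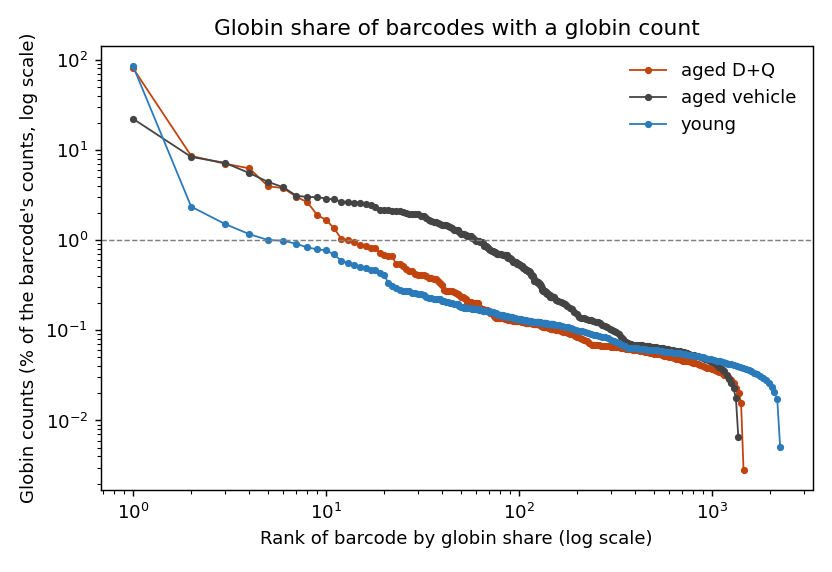
Globin share of each barcode's counts (%, log scale) against its rank within the library (log scale), for barcodes with a globin count in aged D+Q, aged vehicle and young; the dashed line marks 1%. The single barcodes at the upper left hold 80.5% (aged D+Q), 22.1% (aged vehicle) and 85.0% (young) globin, and the aged vehicle curve stays above 1% for 58 barcodes against 13 in aged D+Q and 5 in young (not all are drawn past rank 150).

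Globin-rich barcodes, defined here as those with at least 1% of their counts from the 4 globins, were most frequent in aged vehicle. They numbered 13 of 8037 in aged D+Q (0.162%, 0.0861 to 0.276), 58 of 6027 in aged vehicle (0.962%, 0.731 to 1.24) and 5 of 8615 in young (0.0580%, 0.0188 to 0.135). They held 57.5%, 56.9% and 47.8% of the globin counts of their libraries. At 0.5% or more there were 25, 104 and 15 such barcodes, and at 5% or more 4, 4 and 1. The aged vehicle excess was therefore in barcodes of moderate share, while the barcodes above 50% globin were 1 in aged D+Q, 0 in aged vehicle and 1 in young.

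The 2 barcodes above 50% carried other red cell transcripts too. The aged D+Q barcode had 2200 counts, of which 80.5% were globin and 5.55% mitochondrial, and its 307 remaining counts included 9 of Bpgm, which makes the red cell regulator of oxygen affinity, 3 of Mkrn1 and 2 of the mitochondrial iron importer Slc25a37. It also held 9 of the 43 Alas2 counts of its library. The young barcode had 4019 counts, of which 85.0% were globin and 3.58% mitochondrial, with 12 counts of Mkrn1, 10 of Bnip3l, which acts in the clearing of mitochondria from maturing red cells, 9 of Bpgm and 5 of Alas2. Malat1, a nuclear RNA, made up 0.977% and 2.61% of their counts that were neither mitochondrial nor globin, whereas it made up 14.99% and 15.7% in barcodes under 1% globin of the same libraries. The clustering, which was made without the members and the mitochondrially encoded genes, put both among proximal tubule-like cells, so their cluster names say little about them.

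The top barcode of aged vehicle was less extreme. It had 2330 counts with 22.1% globin and 10.3% mitochondrial counts, 1 count of Alas2, 2 each of Bpgm and Mkrn1, and Malat1 at 10.0% of the other counts. In aged D+Q the second barcode by globin counts (593) was a large urothelium-like one of 14953 counts, which were 3.97% globin, with 0 counts of Alas2 and Bpgm and 3 of Bnip3l.

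Apart from the top barcode of each library, the globin-rich barcodes held small counts of erythroid transcripts. Summed over 25 erythroid genes, some of which other cells express too, they held 297 CPM of the non-mitochondrial, non-globin counts (148 to 531; 12 barcodes) in aged D+Q, 358 (269 to 468; 57 barcodes) in aged vehicle and 427 (139 to 997; 4 barcodes) in young, against 236, 240 and 229 in barcodes under 1% globin. The ratio was 1.26 (0.628 to 2.26), 1.49 (1.12 to 1.95) and 1.87 (0.607 to 4.36), so only the aged vehicle interval lay above 1. Alas2 itself had 3 counts in aged D+Q, 9 in aged vehicle and 0 in young, a ratio to the rest of 49.6 (9.69 to 159) and 40.1 (16.0 to 93.05) in the aged D+Q and aged vehicle libraries. In young the limit that 0 counts allow was 256 CPM. Bpgm was 4.65-fold (2.44 to 8.10) above the rest in aged vehicle, with 13 counts, and Mkrn1 2.56-fold (1.53 to 4.04). In young Bpgm was 8.81-fold (1.06 to 32.0) above the rest with 2 counts, and in aged D+Q 1.54-fold (0.039 to 8.63) with 1 count. The erythroid membrane and nuclear markers Slc4a1 and Hemgn were at 0 in the globin-rich barcodes of all 3 libraries, where 0 counts allow up to 80.9 CPM without the top barcode in aged D+Q, 19.9 in aged vehicle and 256 in young.

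The same barcodes differed from the rest in transcripts outside the erythroid list. Malat1 made up 4.09% of their non-mitochondrial, non-globin counts in aged D+Q, 2.92% in aged vehicle and 7.30% in young, against 14.99%, 12.8% and 15.7% in barcodes under 1% globin. The ferritin chain genes Fth1 and Ftl1, which store iron, were 2.99-fold (2.62 to 3.40) and 2.67-fold (2.21 to 3.20) higher in aged D+Q, 4.58-fold (4.34 to 4.83) and 5.04-fold (4.67 to 5.42) in aged vehicle, and 2.18-fold (1.70 to 2.75) and 1.86-fold (1.27 to 2.65) in young. The abundant proximal tubule transcript Kap was 1.60-fold, 2.52-fold and 1.78-fold higher in that order of libraries, and Gpx3, a secreted peroxidase of the proximal tubule, 1.57-fold, 3.01-fold and 1.43-fold. Low Malat1 with high ferritin, Kap and Gpx3 was shared by all 3 libraries and was most marked in aged vehicle. Other tubule transcripts did not all share it. The next folds, over barcodes under 1% globin, include the top barcode of each library. Lrp2, an endocytic receptor of the proximal tubule, stood at 1.08-fold, 0.635-fold and 1.62-fold. A list of 12 proximal tubule transcripts abundant in kidney, with Kap, Gpx3 and Lrp2 among them, summed to 1.27-fold, 1.81-fold and 1.52-fold. Kap and Gpx3 held 730 and 316 of the list's 1532 counts in aged D+Q. They held 3714 and 2039 of 8085 in aged vehicle, and 254 and 118 of 601 in young. The list sum is therefore not separate from these 2 genes. The part of RNA quality in the globin share was not tested.

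Many of the globin-rich barcodes fell into 1 small cluster. Cluster 19, which got no cell type name, was led by Acta2, Ppbp, Pf4 and Rgs5, a mix of smooth muscle, platelet and pericyte genes, and held 84 barcodes in aged D+Q (1.05%), 155 in aged vehicle (2.57%) and 46 in young (0.534%). It contained 6 of 13, 34 of 58 and 1 of 5 of the globin-rich barcodes. Over all its barcodes the globins reached 2928 CPM (2710 to 3159) in aged D+Q, 6840 (6612 to 7075) in aged vehicle and 1516 (1329 to 1721) in young. Its barcodes under 1% globin were also high, at 814, 2033 and 855 CPM, which was 10.5-fold, 15.2-fold and 8.84-fold above proximal tubule-like barcodes of the same library. Defining erythroid markers were rare in it, with 1, 5 and 0 counts over the 9 of 10 that the files list, but they were rare throughout. Their sum was 5.18 CPM of the non-mitochondrial, non-globin counts in cluster 19 against 8.87 in other barcodes of aged D+Q, 12.1 against 7.68 in aged vehicle, and 0 against 8.71 in young. Slc4a1, which is among them, also served here as an intercalated cell marker. It was a leading gene of cluster 9, a connecting tubule and principal cell-like cluster. The sum in other barcodes is therefore not a measure of red cells alone. Proximal tubule markers summed to 48901, 53429 and 51999 CPM of the non-mitochondrial, non-globin counts in it, against 26845, 24409 and 24447 in other barcodes, and leukocyte markers to 456, 884 and 397 against 168, 268 and 178. The make-up of the cluster differed between libraries. Stromal markers summed to 342, 295 and 3827 in it against 194, 223 and 236 in other barcodes, adipocyte markers to 67.4, 62.96 and 741 against 8.66, 19.5 and 82.6, and thin limb markers to 798, 634 and 779 against 231, 191 and 307. The part of these cell types in the globin level of the cluster was not tested. Cluster 19 also had a median mitochondrial share of 16.0%, 16.3% and 16.6%, well above that of its libraries. It held 3, 7 and 1 of the 43, 29 and 49 Alas2 counts. Cluster 11, also unnamed, held 8, 5 and 12 of them with 5.16%, 6.39% and 4.64% of barcodes. Its barcodes under 1% globin were at 93.04, 212 and 121 CPM of globin, below the 119, 240 and 163 CPM of all such barcodes. The source of the Alas2 counts in cluster 11 was not tested.

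The link of globin to the mitochondrial share, a common measure of cell damage, changed sign with a handful of barcodes. In CPM of the non-mitochondrial, non-globin counts, the globins stood in barcodes over 25% mitochondrial counts at 222 in aged D+Q, 1137 in aged vehicle and 321 in young, against 314, 574 and 353 in the rest. The log2 ratios were -0.50 (-0.69 to -0.31), 0.99 (0.85 to 1.12) and -0.14 (-0.28 to -0.00076). Without the 1 top barcode of each library they became 0.045 (-0.15 to 0.23), 1.09 (0.96 to 1.22) and 0.80 (0.66 to 0.94), and in barcodes under 1% globin 0.82 (0.62 to 1.01), 1.34 (1.16 to 1.52) and 0.46 (0.30 to 0.62). Per non-mitochondrial, non-globin counts, a higher level above 25% was thus seen in all 3 libraries once globin-rich barcodes were set aside, and in aged vehicle also with them. Per all counts this did not hold in each library. In barcodes under 1% globin the level above 25% was then 130 CPM in aged D+Q, 373 in aged vehicle and 137 in young, against 118, 233 and 167 in the rest, with log2 ratios of 0.15 (-0.052 to 0.34), 0.68 (0.50 to 0.86) and -0.28 (-0.45 to -0.13). With that denominator, also chosen after the values were seen, aged vehicle alone was higher above 25% beyond counting error, and young was lower.

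In steps of mitochondrial share, the low globin level rose above 10% and then stayed flat in aged D+Q and young. In barcodes under 1% globin it was 96.7, 119, 234, 222 and 219 of these CPM in aged D+Q for shares up to 5%, 5 to 10%, 10 to 25%, 25 to 50% and over 50%. In aged vehicle it was 180, 274, 550, 656 and 446 over the same steps, and in young 170, 157, 243, 241 and 258. At each step aged vehicle was the highest. The uppermost step held only 149, 82 and 385 barcodes. The flat course depended on the denominator. Per all counts the same steps gave 93.4, 111, 199, 137 and 99.7 CPM in aged D+Q, 175, 255, 467, 420 and 194 in aged vehicle, and 165, 146, 206, 150 and 111 in young, so that the level peaked at 10 to 25% and was lower above it.

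**Figure D3:**
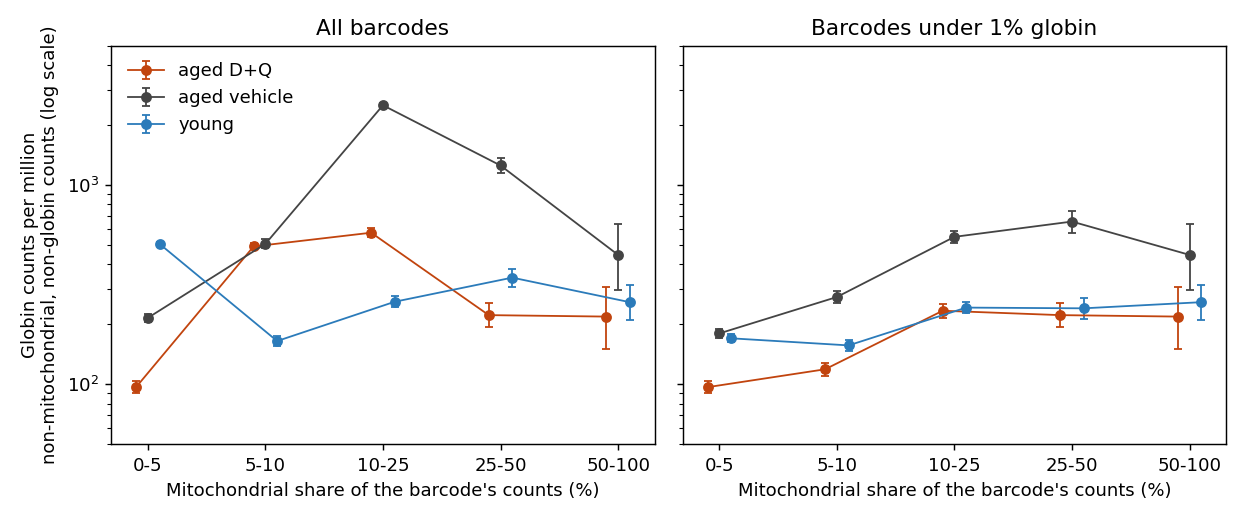
Globin level (CPM of the non-mitochondrial, non-globin counts, log scale) by the barcode's mitochondrial share (%), in aged D+Q, aged vehicle and young, with 95% Poisson intervals; left all barcodes, right barcodes under 1% globin. With all barcodes aged vehicle peaks at 2518 in the 10 to 25% step and young is highest, at 507, in the lowest step, which holds its top barcode; under 1% globin all 3 libraries are higher above 10% than below it on this scale.

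The step at 10%, chosen after those values were seen, was present within cell classes. Among proximal tubule-like barcodes under 1% globin, those over 10% mitochondrial counts had 197 of these CPM against 66.7 in the rest of aged D+Q, 385 against 114 in aged vehicle, and 175 against 93.1 in young. The ratios were 2.96-fold, 3.38-fold and 1.88-fold. Thick ascending limb-like barcodes gave 1.60-fold, 2.17-fold and 1.92-fold. Endothelial-like barcodes gave 1.38-fold in aged D+Q, with a log2 interval of -0.041 to 0.93 that included 0, and 2.85-fold in aged vehicle (from only 22 barcodes over 10%) and 2.07-fold in young. Per all counts the ratios were smaller, at 2.23-fold, 2.64-fold and 1.41-fold for the proximal tubule, 1.24-fold, 1.66-fold and 1.30-fold for the thick ascending limb and 1.18-fold, 2.48-fold and 1.80-fold for the endothelium. In aged D+Q the log2 intervals of the thick ascending limb (-0.25 to 0.88) and the endothelium (-0.26 to 0.71) then included 0. Globin-rich barcodes lay mostly above the same step in both aged libraries, 10 of 13 in aged D+Q, 45 of 58 in aged vehicle and 2 of 5 in young, where 27.7%, 20.1% and 31.0% of all barcodes did. Over single barcodes the Spearman rho of globin level and mitochondrial share was 0.043 (8037 barcodes), 0.11 (6027) and 0.023 (8615), weak values in sparse counts of barcodes that share a library, and no finding.

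Outside the globin-rich barcodes the globin level differed between cell classes. Proximal tubule-like barcodes under 1% globin were at 77.4 CPM (72.7 to 82.3) in aged D+Q, 133 (126 to 142) in aged vehicle and 96.7 (91.5 to 102) in young. Endothelial-like barcodes were at 185 (165 to 208), 287 (257 to 319) and 282 (260 to 305) CPM, that is 2.40-fold, 2.15-fold and 2.91-fold above the proximal tubule. Stromal-like barcodes were at 273, 426 and 289 CPM, or 3.53-fold, 3.19-fold and 2.99-fold above it. Thick ascending limb-like barcodes were at 116, 282 and 174 CPM and distal convoluted tubule-like ones at 159, 171 and 138 CPM. Intercalated cell-like barcodes were at 494 CPM (388 to 620; 52 barcodes with 74 counts) in aged D+Q, 25.1 (5.18 to 73.5; 42 barcodes with 3 counts) in aged vehicle and 103 (68.6 to 147; 101 barcodes with 29 counts) in young. The aged D+Q value rested on 2 barcodes with 34 and 26 of the 74 counts. In this class aged D+Q was above aged vehicle, against the order of the other classes given. The endothelial, stromal, thick ascending limb and distal convoluted tubule classes were thus all above the proximal tubule in each library. A higher level than in the proximal tubule was therefore not particular to vessel and stroma. In aged vehicle the thick ascending limb (282 CPM) was close to the endothelium (287 CPM), and the intercalated cell-like class (25.1 CPM) was below the proximal tubule (133 CPM). The intervals of the distal convoluted tubule overlapped between libraries.

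**Figure D4:**
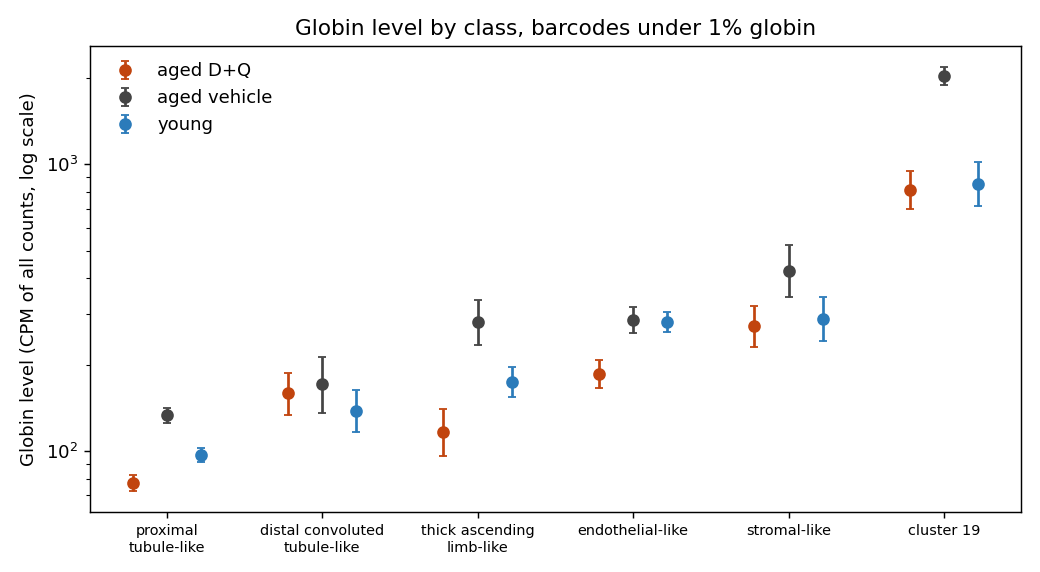
Globin level (CPM of all counts, log scale) in barcodes under 1% globin of 5 named classes and cluster 19, for aged D+Q, aged vehicle and young, with 95% Poisson intervals. Of the 6 groups of barcodes drawn, proximal tubule-like ones are lowest and cluster 19 is highest in every library, and aged vehicle exceeds aged D+Q beyond the intervals in all but the distal convoluted tubule-like class.

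Shares of barcodes with a globin count gave a similar order of classes. At the full depth 18.1% of barcodes in aged D+Q, 22.6% in aged vehicle and 26.1% in young had one, and after thinning each barcode to 1000 counts 8.60% (7.99 to 9.23), 12.4% (11.6 to 13.3) and 12.2% (11.5 to 12.9). Aged vehicle and young then overlapped. In proximal tubule-like barcodes, a class not known as a major source of globin, the thinned shares were 6.59%, 8.90% and 9.19%. At the full depth they were 14.0%, 16.0% and 19.9%, with median totals of 2307, 1803 and 2366. In endothelial-like barcodes they were 15.2%, 18.9% and 19.7% (30.3%, 38.1% and 44.0%, with median totals of 2647, 2550 and 2719). The share in proximal tubule-like barcodes was taken as a reference, and the endothelial share was above it in each library. Whether the proximal tubule share is background was not tested. Among the globin genes, the thinned share ran from 0.908% (Hbb-bt) to 5.04% (Hbb-bs) in aged D+Q. It ran from 2.51% to 8.03% in aged vehicle and from 1.13% to 6.24% in young, with the same genes at both ends. Alas2 was lower than each globin, at 0.112% in aged D+Q, 0.183% in aged vehicle and 0.267% in young.

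Within classes the contrast between libraries depended on single barcodes for the proximal tubule. Aged D+Q against aged vehicle gave a log2 ratio of -0.19 (-0.27 to -0.10) over all proximal tubule-like barcodes and -0.78 (-0.91 to -0.66) in those under 1% globin. Aged vehicle against young gave -0.50 (-0.58 to -0.42) over all and 0.46 (0.35 to 0.58) under 1%, a change of sign, since the young top barcode carries a proximal tubule-like name. In endothelial-like barcodes aged D+Q against aged vehicle gave -0.59 (-0.76 to -0.41) and -0.63 (-0.86 to -0.40). There, aged vehicle against young gave 0.74 (0.57 to 0.91) over all and 0.025 (-0.17 to 0.22) under 1%, so the endothelial age difference was not detectable without 3 globin-rich barcodes of the aged vehicle library.

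The balance of chains also varied. Beta genes made up 66.9% (65.6 to 68.1) of globin counts in aged D+Q, 62.4% (61.3 to 63.5) in aged vehicle and 57.7% (56.6 to 58.9) in young. In barcodes under 1% globin the shares were 60.6% (58.6 to 62.5), 62.4% (60.7 to 64.0) and 53.9% (52.4 to 55.5), so young stayed below both aged libraries, while aged D+Q no longer exceeded aged vehicle. Proximal tubule-like barcodes under 1% gave 61.4%, 61.4% and 54.8%. Hba-a1 made up 57.5%, 58.4% and 57.4% of alpha counts, nearly equal in the 3 libraries.

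The split of the beta pair also differed between libraries and barcodes. Hbb-bt, whose share is given here throughout, made up 13.4% (12.3 to 14.5) of beta counts in aged D+Q, 14.8% (13.8 to 15.9) in aged vehicle and 21.4% (20.2 to 22.6) in young. The young top barcode alone had 27.9% (26.0 to 29.8), and without it the young share was 15.3% (13.8 to 16.8). The aged D+Q and aged vehicle top barcodes had 16.8% (14.8 to 18.9) and 18.3% (14.5 to 22.5). In barcodes under 1% globin the 3 libraries were alike within counting error, at 14.1%, 15.2% and 15.1%. The other 12 globin-rich barcodes of aged D+Q had only 8.45% (6.88 to 10.2), against 13.9% (12.5 to 15.4) in the other 57 of aged vehicle. In aged D+Q the next 3 barcodes by globin counts after the top one had 5.24%, 5.92% and 8.03%, while the one after these, a thick ascending limb-like barcode, had 17.6% (10.9 to 26.1).

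**Figure D5:**
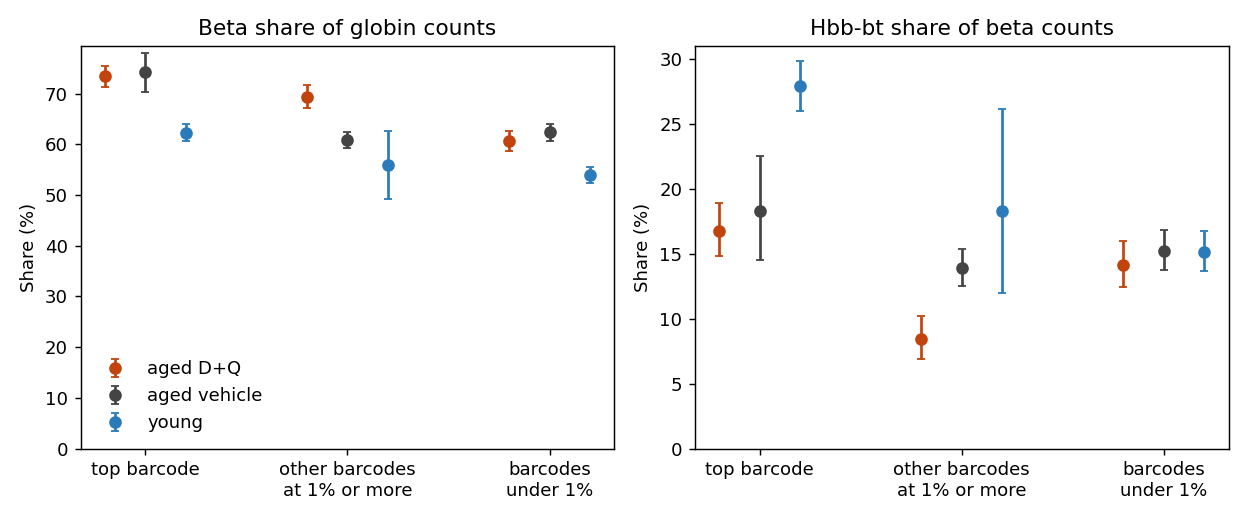
Beta share of globin counts (%, left) and Hbb-bt share of beta counts (%, right) in the top barcode, the other barcodes at 1% globin or more and the barcodes under 1%, for aged D+Q, aged vehicle and young, with 95% Clopper-Pearson intervals. Young has the lowest beta share in the top barcode and under 1%, and its top barcode has the highest Hbb-bt share, 27.9%.

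Barcodes with at least 10 globin counts, 44 in aged D+Q, 124 in aged vehicle and 35 in young, had median beta shares of 65.0%, 60.0% and 56.4%. A few held alpha without beta. An endothelial-like barcode of aged D+Q had 12 counts of Hba-a1, 9 of Hba-a2 and 0 of either beta gene, and a proximal tubule-like barcode of young had 14, 9 and 0. No barcode of this size held under 20% beta in aged vehicle (0 of 124), against 2 of 44 in aged D+Q and 2 of 35 in young.

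Other genes of the red cell programme did not follow the globins in the pooled counts. Of 26 erythroid genes listed, 25 were in the files, 6 passed the level floor, and 0 of those 6 were past 1.5-fold in aged D+Q against aged vehicle. The list's median log2 ratios were -0.070 and 0.047, beside -0.060 and 0.054 over all genes tested. Of 9 other globin genes in the files, 5, including the embryonic Hbb-y and Hba-x, were at 0 in every library. Cygb, the cytoglobin of fibroblasts and pericytes, was the only one above the floor, at 7.46 CPM in aged D+Q, 6.31 CPM in aged vehicle and 2.05 CPM in young (log2 ratios 0.24 and 1.61).

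Haem synthesis genes other than Alas2 changed little. None of 8 was past 1.5-fold in either comparison, and their median log2 ratios were 0.045 and -0.13. Alas1, the housekeeping isoenzyme of Alas2, stood at 163 CPM in aged D+Q, 113 CPM in aged vehicle and 116 CPM in young, with a log2 ratio of 0.53 (0.44 to 0.62) for aged D+Q against aged vehicle, just under the 1.5-fold size.

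Of 24 measured genes of haem breakdown and iron handling, 1 was higher and 1 lower in aged D+Q than in aged vehicle, and 0 were higher and 3 lower in aged vehicle than in young. Flvcr1, which exports haem, was at 23.6 CPM in aged D+Q, 14.2 CPM in aged vehicle and 21.4 CPM in young, with log2 ratios of 0.73 and -0.59. Trf, the iron carrier transferrin, was at 7.84, 14.3 and 13.7 CPM, with a log2 ratio of -0.87 for aged D+Q against aged vehicle. The others lower in aged vehicle than in young were Slc46a1, a haem and folate carrier (log2 ratio -0.82), and Flvcr2 (-0.76). Of the 5 measured genes for uptake of haemoglobin and haem, 2 were higher in aged vehicle than in young, namely the endocytic receptor Cubn (491 CPM in aged vehicle and 313 CPM in young, log2 ratio 0.65) and its adaptor Dab2 (1508 and 908 CPM, 0.73), and 0 were past 1.5-fold in aged D+Q against aged vehicle.

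Epo, the hormone gene itself, was nearly level, at 820 counts or 38.9 CPM in aged D+Q, 481 counts or 34.5 CPM in aged vehicle and 819 counts or 33.6 CPM in young, with log2 ratios of 0.17 and 0.037. Its counts were spread over the clusters, so its level does not mark 1 cell type. The 5 proximal tubule-like clusters numbered 0 to 4 stood at 39.4 to 49.4 CPM in aged D+Q, 34.9 to 41.2 in aged vehicle and 36.5 to 43.8 in young, and the stromal-like cluster 7 at 36.1, 35.1 and 17.8. The spread was not even. Cluster 6, also proximal tubule-like but with a median mitochondrial share of 41.5%, had only 7.36, 7.31 and 4.91 CPM. Cluster 19 had 8.78, 10.1 and 19.1 CPM. Of the 15 measured genes of oxygen sensing and erythropoietin, 1 was lower in aged D+Q than in aged vehicle, the glycolytic regulator Pfkfb3 (16.7 and 27.3 CPM, log2 ratio -0.71). In aged vehicle against young 1 was lower, Pdk1 (20.5 and 31.6 CPM, -0.62), which restrains pyruvate entry into mitochondria. The 13 mitochondrially encoded genes, set beside these as a measure of barcode quality, had median log2 ratios of 0.35 and -0.47, opposite in sign to the globins in each comparison. None of the 11 platelet and 10 neutrophil genes passed the floor. Under it, Pf4, a platelet chemokine named here after its values were seen because it was among the leading genes of cluster 19, stood at 0.90 CPM in aged D+Q, 4.66 CPM in aged vehicle and 1.93 CPM in young. Its log2 ratios were -2.34 (-3.19 to -1.61) for aged D+Q against aged vehicle and 1.27 (0.71 to 1.85) for aged vehicle against young, in the direction of the globins. Other platelet genes did not all share this direction. Ppbp, also a leading gene of cluster 19, gave -1.03 (-2.57 to 0.39) and -0.45 (-1.65 to 0.57). Itga2b of the same list gave -0.19 (-0.68 to 0.31) and -0.28 (-0.75 to 0.16). Each interval of Ppbp and Itga2b included 0.

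Over barcodes, the genes whose levels were most like the globin sum, of 9903 compared, included Ldb2, Meis2, Plpp1, Fbln5, Cald1, Fli1 and Fabp4. Their lowest Pearson r over the 3 libraries was between 0.10 and 0.11, which is weak in sparse counts and no finding, and barcodes of 1 library share its depth and background.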

How the data were processed

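The matrices deposited by the authors give UMI counts (unnormalised) for every gene in each barcode. Libraries were MobiCube 3′ sets sequenced on an Illumina NovaSeq, per the labels' protocols. For the aligner, the build used and the choice of barcodes, the tools are not given in the sources at hand. The lowest total was 1451, 1416 and 1561 counts in aged D+Q, aged vehicle and young, so barcodes had been selected. Every deposited barcode was kept. Scrublet called 0 doublets, so it had not worked; a score quantile at 0.8% per 1000 barcodes served as an alternative (460, 256 and 514 left out). Counts were pooled per library to CPM, and no test was possible with 1 library per group. Sizes were counted at 1.5-fold (prior 0.5 counts) among genes with at least 30 counts in all and 5 CPM on average. Barcodes were clustered without members and mitochondrial genes (2000 variable genes, 30 components, 15 neighbours, Leiden resolution 1; 22 clusters) and named from markers of 13 classes. A class needed at least 3 detected markers. Clusters led by genes against their name stayed unnamed, so names may differ from the study's. Thinning used 1 draw. Members, the 11 gene lists and the rules were chosen with earlier results of these data known; list genes named are those of largest ratio, fewer where few passed the floor, and further genes of globin-rich barcodes were chosen after their values were seen. A few genes are not reported here. Ratio intervals were tested on simulated data. Tools were Python 3.11.15, scanpy 1.11.5, scipy 1.17.1, Biopython 1.88, R 4.3.3 and edgeR 4.0.16, the last for TMM scaling as an alternative.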

Additional observations from a re-analysis of the deposited data

How the results depend on the processing

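Of 87 recomputed values, 43 stayed within their counting interval or 1.5 times the count, 35 moved further and 9 changed sign. The cause was not tested where none is shown. No paired analysis was possible because each group has 1 library. The log2 globin ratio of aged D+Q to aged vehicle (-0.98) kept its sign: -0.89 at up to 25% mitochondrial counts, -1.49 without the 1% of barcodes highest in globin, -0.77 as a mean over barcodes, -0.75 thinned, -0.92 with median-of-ratios scaling and -1.40 without the top barcode. That of aged vehicle to young (0.81) also kept it: 0.72 at up to 25% mitochondrial counts, 0.76 with non-mitochondrial counts as denominator, 0.76 with TMM, 0.76 with median-of-ratios scaling, 1.57 without the top barcode and 0.56 without globin-rich barcodes. Globin-rich shares at a threshold of 0.5% were 0.311% (aged D+Q), 1.73% (aged vehicle) and 0.174% (young), and at 5% 0.0498%, 0.0664% and 0.0116%, so the excess of aged vehicle over aged D+Q narrowed at 5%.

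The mitochondrial link above 25% changed sign in aged D+Q (-0.50): 0.71 without the top 1% of barcodes, 0.85 for a threshold of 10%, 0.045 without the top barcode, 0.82 without globin-rich barcodes and 0.15 without them per all counts. It was -1.17 per all counts and -2.21 as a mean over barcodes. In young (-0.14) it changed sign to 0.56 without the top 1%, 0.13 thinned, 0.80 without the top barcode and 0.46 without globin-rich barcodes, and was -0.88 per all counts, -0.28 per all counts without globin-rich barcodes, -2.003 as a mean over barcodes and -0.43 at 10%. In aged vehicle (0.99) it was 1.13 at up to 50% mitochondrial counts, 1.29 without the top 1%, 0.33 per all counts, 1.21 thinned, 2.93 at 10%, 1.34 without globin-rich barcodes and 0.68 without them per all counts. Genes past 1.5-fold numbered 7858 (aged D+Q against aged vehicle, 386 as reported) and 8461 (aged vehicle against young, 858) with no filter on low counts, and 71 and 188 at 2-fold.

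Depth limits Alas2 most: with 43, 29 and 49 counts, a difference below about 1.5-fold could not be seen. Single libraries, red cell lysis before capture and 1 barcode with 30.2% (aged D+Q) or 44.9% (young) of globin counts limit every level.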
